A study of Homo sapiens
Mus musculus and Homo sapiens with 21 samples.

Results

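Choroid plexus genes were followed here in the host brain of mice carrying human lung cancer metastases. The set holds 9 mouse genes that mark the epithelium of the choroid plexus, Ttr, Enpp2, Sostdc1, Kl, Folr1, Aqp1, Clic6, Cldn2 and Otx2, out of 33043 genes in the deposited mouse expression table, and each was found by its symbol. All 9 passed the filter on low values that 15777 genes passed. The tumour cells were H2030-BrM3, a brain-metastatic derivative of a human lung adenocarcinoma line, grown in athymic nu/nu mice that were 5 to 6 weeks old when injected. The 14 brain libraries were 4 of tumour-free forebrain, 4 of tumour-free hindbrain, 3 of tumour-bearing forebrain and 3 of tumour-bearing hindbrain. Athymic mice lack normal T cells, and this holds for every brain group. The labels give the tumour line for tumour-free brain too and do not say whether those mice were injected. Tumours were cut out by hand together with the surrounding stroma and flash frozen, and total RNA of the whole piece was sequenced, so mouse and human reads come from 1 extract. The other 7 of the 21 libraries were 4 of subcutaneous tumours and 3 of monolayer culture.

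The choroid plexus is a folded sheet of epithelium over a vascular core that hangs inside the brain ventricles. Its cells secrete cerebrospinal fluid, form the barrier between blood and that fluid, and release carrier proteins and growth factor antagonists into it. Because the tissue sits inside the ventricles of both forebrain and hindbrain and not in the brain wall itself, the amount of it in a piece of brain depends on where the piece is cut.

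Levels are RPKM (reads scaled to gene length and to the reads of the library), which correct for gene length, rescaled so that each library sums to 1e+06. They are called rescaled RPKM below. Mouse reads per library, recovered from the steps of the RPKM values, ran from 17747167 to 20432888 in tumour-free forebrain, from 19338017 to 23034782 in tumour-free hindbrain, from 54450435 to 71916502 in tumour-bearing forebrain and from 52358082 to 86139353 in tumour-bearing hindbrain. Region labels were checked with a neuronal gene of the cerebellum. Gabra6, a GABA receptor subunit of cerebellar granule cells, was at 79.6 to 215.7 rescaled RPKM in the 7 hindbrain libraries and below 0.14 in the 7 forebrain libraries. No label says that libraries came from separate animals, so the p-values measure the spread between these libraries, which may be technical in part. In whole pieces of tissue, fewer choroid plexus cells and less RNA per cell cannot be told apart.

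Replicates 2 and 3 of the tumour-bearing forebrain stood apart from the other 12 brain libraries in these genes. Replicate 2 was the lowest of the 14 libraries for 7 of the 9 genes and replicate 3 for 1, Otx2. The remaining gene, Clic6, was lowest in replicate 2 of the tumour-free hindbrain. Replicate 3 was the second lowest for the other 8 genes. Over all genes tested, replicate 2 was the lowest library for 14.5% and replicate 3 for 7.73%. Comparisons that include this group are therefore also given without both of them. The group then has 1 tumour-bearing forebrain library, whose spread is assumed to be like that of the other groups.

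Ttr encodes transthyretin, the carrier of thyroid hormone and retinol in cerebrospinal fluid. It had the highest level of the 9 genes in every brain library but replicates 2 and 3 of the tumour-bearing forebrain, where Enpp2 was higher. In tumour-free forebrain its 4 libraries read 232, 655, 836 and 493 rescaled RPKM, and in tumour-free hindbrain 765, 358, 923.5 and 736. In tumour-bearing forebrain replicates 1 to 3 read 1154, 11.01 and 19.15, against 794, 1845 and 825.5 in tumour-bearing hindbrain. The highest and the lowest library of the tumour-bearing forebrain were 104.8-fold apart, while those of the other 3 groups were 2.32- to 3.61-fold apart. The 2 low libraries still held 629 and 1242 Ttr reads, so the low values do not come from a few reads.

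Enpp2, which encodes autotaxin, a secreted enzyme that makes lysophosphatidic acid and is also made by oligodendrocytes, had the next highest level. It read 194, 207, 212 and 279 rescaled RPKM in tumour-free forebrain and 616.5, 258, 486 and 606 in tumour-free hindbrain. In tumour-bearing forebrain it read 389, 111.5 and 126, and in tumour-bearing hindbrain 402, 711 and 671. Every tumour-bearing hindbrain library was above every tumour-bearing forebrain library, while in tumour-free brain the lowest hindbrain library lay below the highest forebrain library.

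Sostdc1 encodes a secreted antagonist of BMP and Wnt signals. Its levels were 7.42, 8.08, 9.39 and 11.7 rescaled RPKM in tumour-free forebrain and 19.9, 4.54, 11.8 and 16.4 in tumour-free hindbrain. They were 11.8, 0.524 and 1.009 in tumour-bearing forebrain and 8.38, 17.45 and 14.8 in tumour-bearing hindbrain. Replicate 1 of the tumour-bearing forebrain lay at the upper end of the tumour-free forebrain, and the other 2 libraries lay below all 4 of its values.

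Kl encodes klotho, a membrane protein that can be shed into cerebrospinal fluid and is a co-receptor for FGF23. It read 5.36, 5.89, 7.15 and 9.15 rescaled RPKM in tumour-free forebrain and 17.2, 4.84, 10.3 and 15.6 in tumour-free hindbrain. In the tumour-bearing forebrain it read 12.6, 1.43 and 1.97, and in the tumour-bearing hindbrain 7.61, 17.3 and 15.8. The same pattern appeared, with 1 library above and 2 below the tumour-free forebrain.

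Among the transport genes, Folr1 encodes the folate receptor that carries folate across the epithelium. It read 7.23, 7.74, 10.4 and 14.4 rescaled RPKM in tumour-free forebrain and 17.55, 3.78, 9.48 and 19.6 in tumour-free hindbrain. Its tumour-bearing forebrain values were 11.4, 0.657 and 0.755, and its tumour-bearing hindbrain values 5.89, 17.2 and 19.1. The low values rest on 23 and 30 reads.

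Aqp1 encodes the water channel of the apical membrane, and it had the lowest level of the 9 genes in each of the 4 group means. It read 0.750, 1.82, 2.14 and 2.41 rescaled RPKM in tumour-free forebrain, 3.71, 1.12, 2.95 and 3.70 in tumour-free hindbrain, 3.62, 0.292 and 0.415 in tumour-bearing forebrain and 2.16, 5.19 and 4.74 in tumour-bearing hindbrain. The hindbrain and forebrain ranges overlapped with and without tumour.

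Clic6, a member of the chloride intracellular channel family, varied least of the 9 genes between libraries. It read 11.8, 12.2, 18.5 and 17.9 rescaled RPKM in tumour-free forebrain and 22.9, 8.23, 17.7 and 22.8 in tumour-free hindbrain. In tumour-bearing forebrain it read 27.0, 9.835 and 8.86, and in tumour-bearing hindbrain 15.6, 31.0 and 24.7. Its highest and lowest of the 14 libraries were 3.77-fold apart, against 6.38-fold for Enpp2 and 167.6-fold for Ttr.

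Cldn2 encodes a claudin of the tight junctions between the epithelial cells, one that lets cations pass. It read 3.67, 6.55, 8.81 and 9.597 rescaled RPKM in tumour-free forebrain and 15.4, 4.52, 11.6 and 15.2 in tumour-free hindbrain. Its values were 12.8, 0.339 and 0.6225 in tumour-bearing forebrain and 7.53, 19.3 and 14.9 in tumour-bearing hindbrain. The 2 low libraries held 12 and 25 Cldn2 reads, the fewest of any gene in the set.

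Otx2, a homeodomain transcription factor needed to form and keep choroid plexus epithelium, had the narrowest spread of the 9 genes in both hindbrain groups, with a coefficient of variation of 21.4% without and 13.8% with tumour. It read 5.86, 6.79, 8.92 and 7.67 rescaled RPKM in tumour-free forebrain and 19.5, 14.7, 12.7 and 20.0 in tumour-free hindbrain. In tumour-bearing forebrain it read 10.7, 2.31 and 1.72, and in tumour-bearing hindbrain 17.5, 22.5 and 22.4. All 7 hindbrain libraries were above all 7 forebrain libraries, which held for no other gene of the set.

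**Figure D1:**
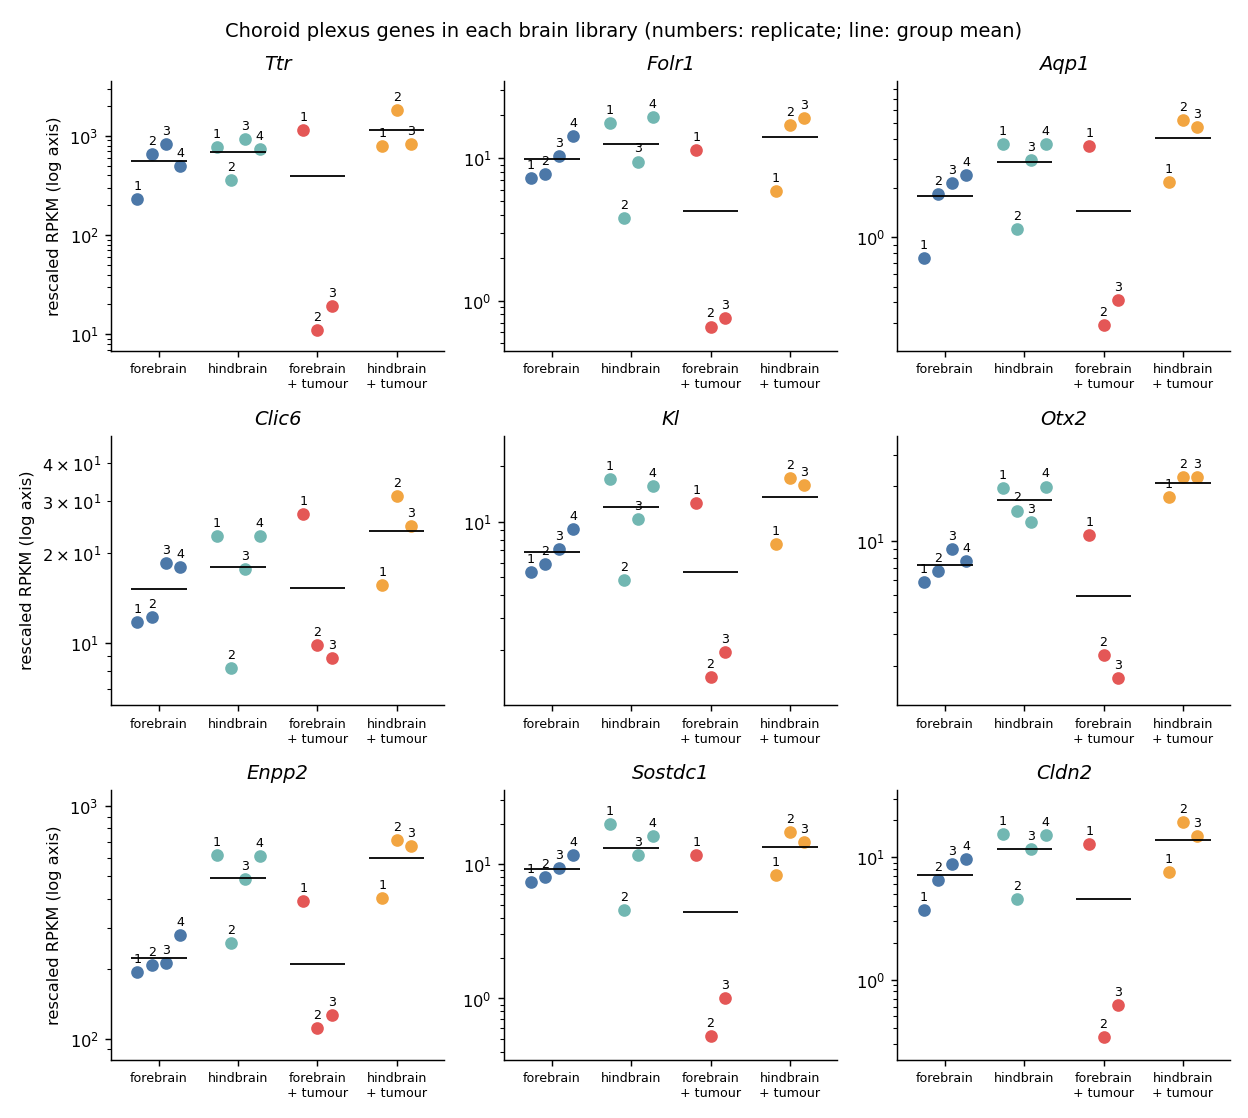
Rescaled RPKM (log axis) of the 9 choroid plexus genes in the 14 brain libraries, 1 panel per gene, with points numbered by replicate and a line at each group's mean. Replicates 2 and 3 of the tumour-bearing forebrain sit far below replicate 1 in every panel, for Ttr at 11.01 and 19.15 against 1154.

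The gap between replicate 1 and the other 2 tumour-bearing forebrain libraries was not of 1 size for all genes. Ttr was at 0.954% and 1.66% of its level in replicate 1, Cldn2 at 2.66% and 4.88%, and Sostdc1 at 4.44% and 8.56%. Folr1 was at 5.77% and 6.63%, Aqp1 at 8.08% and 11.5%, and Kl at 11.3% and 15.6%. For these 6 genes both libraries were below 16% of replicate 1. Otx2 was at 21.65% and 16.1%, Enpp2 28.6% and 32.4%, and Clic6 36.5% and 32.8%. The order of the genes was nearly the same in both libraries, with Clic6 and Enpp2 closest to replicate 1 and Ttr farthest from it.

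Ratios between genes of the set within a library show the same unevenness. Cldn2 was used as the common denominator because its level followed the mean of the other 8 genes most closely. Kl over Cldn2 was 4.21 and 3.16 in replicates 2 and 3 of the tumour-bearing forebrain and between 0.811 and 1.46 in the other 12 libraries. Clic6 over Cldn2 reached 29.0 and 14.2 in these libraries, and Enpp2 over Cldn2 reached 328.8 and 202.5. The denominators there rest on 12 and 25 reads. As to oligodendrocytes, which also make Enpp2, 12 of their genes summed to 3551 to 4556 rescaled RPKM over the 3 tumour-bearing forebrain libraries and to 3599 to 4628 over the 4 tumour-free ones.

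The ratio of Ttr to Folr1 varied in another way. In tumour-free forebrain replicates 1 to 4 it was 32.1, 84.6, 80.4 and 34.2, and in tumour-free hindbrain 43.6, 94.6, 97.4 and 37.5. In both regions replicates 2 and 3 were above 80 and replicates 1 and 4 below 44. In tumour-bearing forebrain it was 101.3, 16.8 and 25.4, the last 2 on 23 and 30 Folr1 reads, and in tumour-bearing hindbrain 134.9, 107.2 and 43.3. Ttr over Cldn2 gave the same grouping in tumour-free brain, with 63.1, 100.0, 94.8 and 51.4 in forebrain and 49.65, 79.1, 79.4 and 48.3 in hindbrain. The labels do not say that a replicate number stands for 1 animal, and what the numbers share was not tested.

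**Figure D2:**
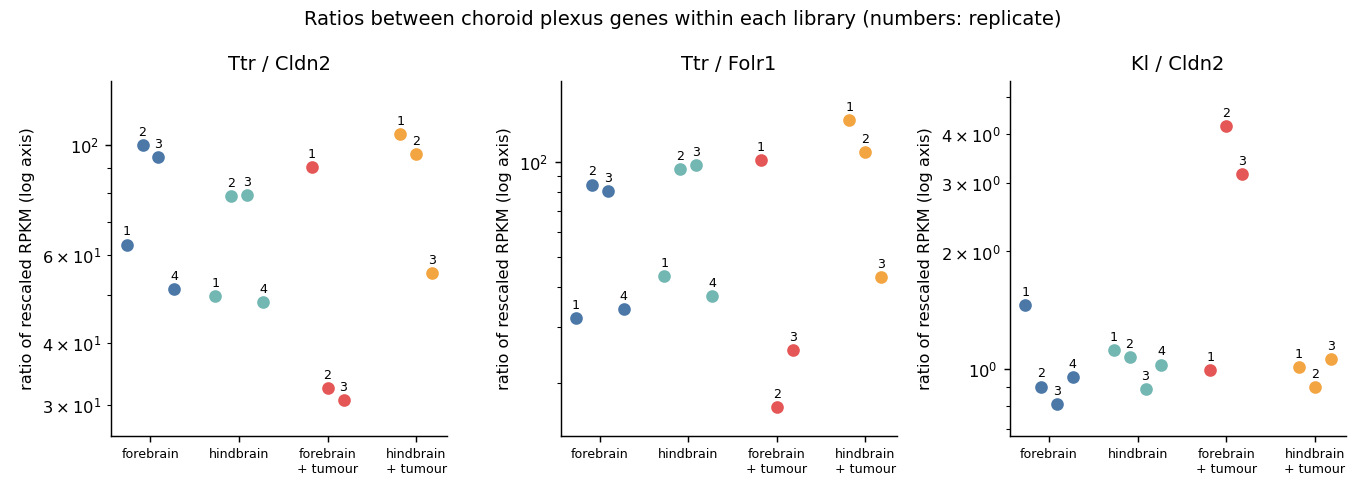
Ratios between choroid plexus genes within each brain library (log axis), with points numbered by replicate and libraries grouped by region and tumour. In tumour-free brain the Ttr to Folr1 ratio is above 80 in replicates 2 and 3 of both regions and below 44 in replicates 1 and 4, and in tumour-bearing forebrain replicates 2 and 3 fall to 16.8 and 25.4.

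The first comparison asks how the host forebrain differs when it carries metastases. The mean Ttr level was 395 ± 658 rescaled RPKM (SD, n = 3) with tumour and 554 ± 256 (SD, n = 4) without, and the mean Cldn2 level was 4.57 ± 7.09 and 7.16 ± 2.66. For 8 of the 9 genes the mean was lower with tumour, by less than the standard deviation of the tumour-bearing libraries. Clic6 was at 15.2 ± 10.2 with tumour and 15.1 ± 3.59 without. In the limma fit on log2(rescaled RPKM + 1) over the 14 libraries, 0 of the 9 genes passed an adjusted p of 0.05, while 14.4% of all genes tested were called higher and 16% lower. By the unadjusted p, 3 genes were under 0.05, Ttr, Folr1 and Sostdc1, and limma's voom method on the recovered reads called 0.

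All fold changes below are on that log2 scale with a pseudocount of 1, which understates the change of low genes. Ttr had the largest estimate, a log2 change of -2.94 (SE 1.30, 95% interval -5.82 to -0.055, limma adjusted p = 0.114). Folr1 followed with -1.68 (adjusted p = 0.109), Sostdc1 with -1.56 (adjusted p = 0.1004) and Cldn2 with -1.33 (adjusted p = 0.201). Otx2 had -0.80 (adjusted p = 0.129), Kl -0.75 (adjusted p = 0.351), Aqp1 -0.40 (adjusted p = 0.514), Enpp2 -0.32 (adjusted p = 0.610) and Clic6 -0.13 (adjusted p = 0.840). The median over the 9 genes was -0.80 and that over all genes tested -0.03. The groups overlapped for all 9, while 17.1% of all genes tested had higher and 20.8% lower groups with no overlap.

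These estimates turned on single libraries. Without replicates 2 and 3 of the tumour-bearing forebrain the log2 change was positive for all 9 genes, from 0.22 for Folr1 to 1.204 for Ttr, and none was called (limma adjusted p 0.214 to 0.894), where 4.98% of all genes tested were called higher and 2.42% lower. Replicate 1, the only library left, was above all 4 tumour-free forebrain libraries for 8 of the 9 genes, all but Folr1, as for 28.2% of all genes tested. Without replicate 1, in turn, 6 genes were called lower, where 10.6% of all genes tested were: Ttr by -5.01 (limma adjusted p = 0.000383), Otx2 by -1.46 (adjusted p = 0.000286), Sostdc1 (adjusted p = 0.00287), Cldn2 (adjusted p = 0.00557), Folr1 (adjusted p = 0.0112) and Kl (adjusted p = 0.0234). The 3 libraries of this group thus lay on both sides of the tumour-free forebrain.

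In the hindbrain, the libraries with tumour were not split in this way. Mean Ttr was 1155 ± 598 rescaled RPKM (SD, n = 3) with tumour and 696 ± 240 (SD, n = 4) without, mean Folr1 was 14.1 ± 7.14 and 12.6 ± 7.33, and mean Otx2 was 20.8 ± 2.88 and 16.7 ± 3.58. The 9 log2 changes ran from 0.14 for Sostdc1 to 0.70 for Ttr, with a median of 0.31 against -0.01 over all genes tested, and the groups overlapped for every gene. None of the 9 was called by limma (adjusted p 0.675 to 0.952), 0 were under an unadjusted p of 0.05, and voom called 0. Among all genes tested 2.92% were called higher and 0.33% lower, and the groups did not overlap for 7.26% that were higher and 5.5% that were lower. The 95% intervals were wide: for Ttr from -2.19 to 3.58 and for Otx2 from -0.51 to 1.14. They use a spread shared with the other groups, so replicates 2 and 3 of the tumour-bearing forebrain widen them. Both intervals were narrower in the fit without those libraries, which are not in this comparison. Replicate 2 of the tumour-bearing hindbrain was the highest of the 14 libraries for 7 of the 9 genes, against 8.43% of all genes tested.

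Whether the tumour changed the genes differently in the 2 regions was tested as the interaction, the forebrain change minus the hindbrain change. None of the 9 genes passed (limma adjusted p 0.274 to 0.628), none was under an unadjusted p of 0.05 and voom called 0, where 0.456% of all genes tested were called in either direction. The estimate for Ttr was -3.64 (95% interval -7.71 to 0.44) and that for Otx2 -1.12 (95% interval -2.28 to 0.05). Without replicates 2 and 3 of the tumour-bearing forebrain all 9 estimates were positive, from 0.02 for Folr1 to 0.59 for Kl, again with none called, where 0.00639% of all genes tested were called higher and 0.0128% lower. Without its replicate 1, Ttr at -5.71 (limma adjusted p = 0.0131) and Otx2 at -1.77 (adjusted p = 0.00926) were called, against 0.267% of all genes tested. Among all calls of the interaction 55.6% were higher, and 68.5% with median-of-ratios scaling.

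**Figure D3:**
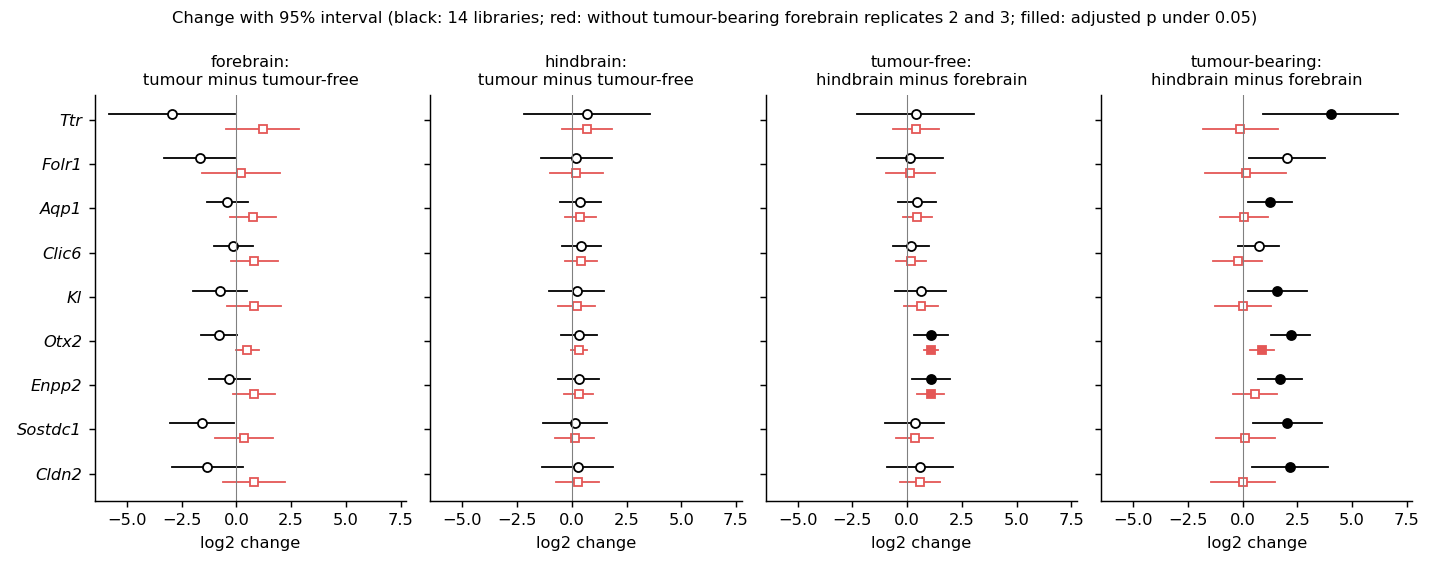
Log2 change of each choroid plexus gene with its 95% interval in each comparison, over all 14 brain libraries (black) and without tumour-bearing forebrain replicates 2 and 3 (red), with filled points for an adjusted p under 0.05. The forebrain estimates change sign without those libraries, from -2.94 to 1.204 for Ttr, and Otx2 is filled in both colours in both comparisons of hindbrain with forebrain.

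Between the regions of tumour-free brain, 2 of the 9 genes were higher in hindbrain and none lower, where 32.5% of all genes tested were called higher and 20.2% lower. Otx2 rose by 1.08 on the log2 scale, 2.12-fold (95% interval 1.25 to 3.59, limma adjusted p = 0.0198), from 7.31 ± 1.30 to 16.7 ± 3.58 rescaled RPKM (SD, n = 4 each), and its groups did not overlap, as for 27.3% of all genes tested in that direction. Enpp2 rose by 1.07, 2.10-fold (95% interval 1.15 to 3.83, limma adjusted p = 0.0389), from 223 ± 38.1 to 492 ± 167, with groups that overlapped. For the other 7 genes the log2 change ran from 0.15 for Folr1 to 0.61 for Kl (limma adjusted p 0.353 to 0.872). Among all calls of this comparison 61.6% were higher, and 51.2% with median-of-ratios scaling.

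The Otx2 and Enpp2 calls were both near the threshold. The Otx2 call was lost without replicate 1 of the forebrain (limma adjusted p = 0.0562), replicate 1 of the hindbrain (0.0582) or replicate 4 of the hindbrain (0.0524), and with voom (0.0513), although its log2 change stayed between 0.81 and 1.21 under every alternative. The log2 change of Enpp2 stayed between 0.937 and 1.355 under every alternative. Its call was lost without replicate 1, 2 or 3 of the forebrain, replicate 1, 3 or 4 of the hindbrain or replicate 3 of the tumour-bearing hindbrain (limma adjusted p 0.0504 to 0.105), with voom (limma adjusted p = 0.0580), with median-of-ratios scaling (0.0507), without the filter (0.0510) and with the replicate number as a block within tumour status (0.0650). In a fit without the 2 low tumour-bearing forebrain libraries, which are not in this comparison but share its estimate of the spread, Otx2 had an adjusted p of 7.8e-05 and Enpp2 of 0.00694, where 31.5% of all genes tested were called higher. Within the hindbrain, replicate 2 was the lowest of the 4 libraries for 8 of the 9 genes, all but Otx2. That library also had the highest sum of 15 meningeal fibroblast genes, 2690 rescaled RPKM against 1642 as the lowest of the group, and its part in these levels was not tested.

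Between the regions of tumour-bearing brain, 7 of the 9 genes were called higher in hindbrain and none lower, where 30.7% of all genes tested were called higher and 17.8% lower. The largest change was that of Ttr, 4.03 on the log2 scale or 16.3-fold (95% interval 1.93 to 138.2, limma adjusted p = 0.0341). Otx2 rose 4.59-fold (95% interval 2.50 to 8.45, limma adjusted p = 0.000595) and Enpp2 3.26-fold (95% interval 1.63 to 6.52, limma adjusted p = 0.0088). Cldn2 rose by 2.18 on the log2 scale (limma adjusted p = 0.0406), Sostdc1 by 2.04 (0.0344), Kl by 1.59 (0.0496) and Aqp1 by 1.25 (0.0387). Folr1, with 2.04 (adjusted p = 0.0520), and Clic6, with 0.73 (adjusted p = 0.189), did not pass. The groups did not overlap for 2 genes, Otx2 and Enpp2, as for 39% of all genes tested in that direction. Of the 12 oligodendrocyte genes 11 were also called higher in tumour-bearing hindbrain, with a median log2 change of 1.12. Their part in the Enpp2 change was not tested.

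With both low forebrain libraries left out, 1 of the 9 genes was called, Otx2, at 0.89 on the log2 scale or 1.86-fold (limma adjusted p = 0.0181), where 16.7% of all genes tested were called higher. The other 8 then ran from -0.23 for Clic6 and -0.12 for Ttr to 0.57 for Enpp2. Leaving out replicate 2 or 3 of either tumour-bearing group, 1 at a time, left 2 genes called each time. In those 4 fits 26.8%, 26.6%, 27.6% and 26.9% of all genes tested were called higher. Leaving out replicate 3 of the tumour-free hindbrain, which enters through the shared spread, left 4, against 31.5% of all genes tested. Without replicate 1 of the tumour-bearing forebrain all 9 were called, against 28.2% of all genes tested. Kl lost its call without any 1 of the 4 tumour-free forebrain libraries and without replicate 1 or 4 of the tumour-free hindbrain, and Cldn2 without replicate 2 or 3 of the former or 1 or 4 of the latter. Ttr lost its call without replicate 1 of the tumour-bearing hindbrain (limma adjusted p = 0.0626). Folr1 gained one without that library or without replicate 2 of the tumour-free hindbrain. Same-numbered libraries of the tumour-bearing forebrain and hindbrain deviated together, and with that number as a block 2 genes were called, Otx2 (adjusted p = 0.00291) and Enpp2 (adjusted p = 0.0222), where 30.5% of all genes tested were called higher. Otx2 was called under all 29 alternatives run, with an adjusted p of 0.0257 at most. Among all calls of this comparison 63.3% were higher, and 49.1% with median-of-ratios scaling, which lowered the median of all genes by 0.101.

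The 9 genes rose and fell together from library to library. Over the 14 brain libraries, which share their pieces of tissue across genes, Pearson's r between log2(rescaled RPKM + 1) of a gene and the standardised mean of the other 8 was 0.991 for Cldn2, 0.99 for Kl, 0.968 for Aqp1 and 0.965 for Sostdc1. It was 0.947 for Folr1, 0.927 for Enpp2, 0.909 for Ttr, 0.888 for Otx2 and 0.864 for Clic6. With each gene's group means removed, so that only differences between replicates counted, r ran from 0.873 for Ttr to 0.993 for Cldn2, and for Otx2 it was 0.884. Without the 2 low libraries r of level, over 12 libraries, was 0.984 for Cldn2, 0.977 for Kl and for Aqp1, 0.757 for Ttr and 0.672 for Otx2, with the other 4 between 0.822 and 0.916. The r of deviation, over the 11 libraries of the groups with replicates left, then ran from 0.662 for Ttr to 0.986 for Cldn2.

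**Figure D4:**
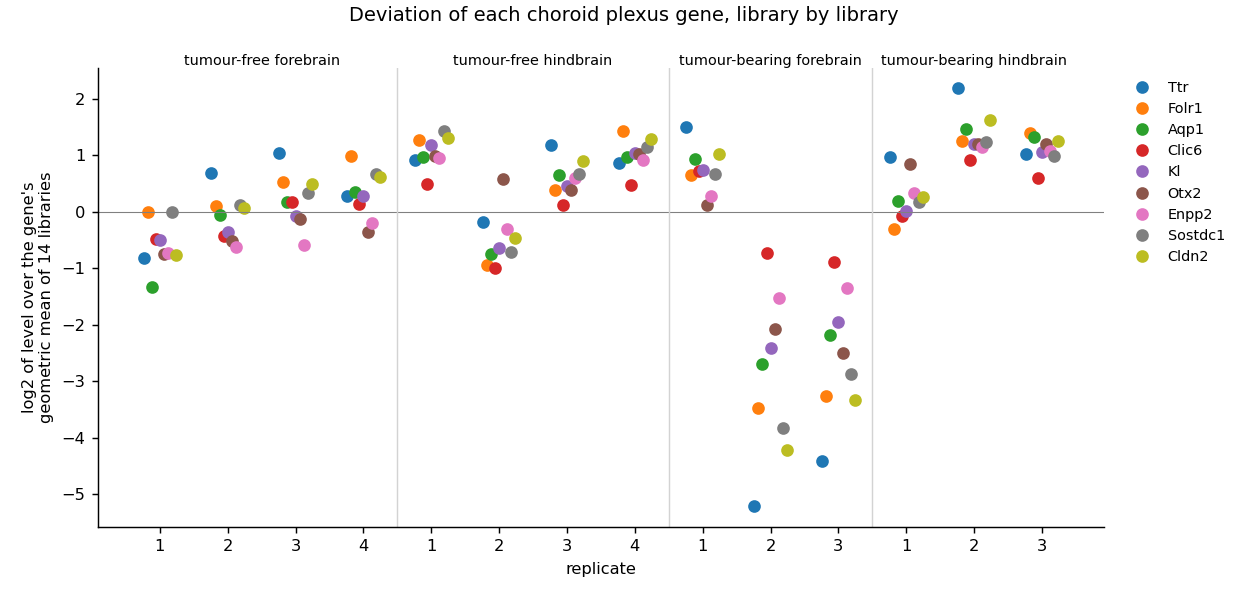
Log2 of each choroid plexus gene's rescaled RPKM over its geometric mean of the 14 brain libraries, with 1 colour per gene and libraries in order of group and replicate. The 9 points of a library lie close together except in replicates 2 and 3 of the tumour-bearing forebrain, where Ttr, Cldn2, Sostdc1 and Folr1 lie lowest and Clic6 and Enpp2 highest.

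Of 11383 genes with a mean of at least 5 rescaled RPKM over the 14 libraries, 8 were named for each of 2 measures of likeness, the r of level and the r of deviation from group means with the mean of the 9 genes, over 14 libraries. By level they were Kcnj13 (0.989), 1500015O10Rik (0.974), Slc4a5 (0.955), Slc2a12 (0.95), Lbp (0.94), Cab39l (0.908), Prlr (0.901) and Cfap126 (0.882). By deviation they were Slc4a5 (0.996), Kcnj13 (0.981), 1500015O10Rik (0.965), Slc2a12 (0.94), Crb2 (0.931), Lbp (0.929), Prlr (0.923) and Spata6 (0.921). Without the 2 low libraries Kcnj13 (0.971) and 1500015O10Rik (0.919) stayed the first 2 by level and Slc4a5 (0.99) and Kcnj13 (0.958) by deviation, while Cfap126 moved to place 57 by level and Prlr to place 25 by deviation. Kcnj13 encodes a potassium channel and Slc4a5 a sodium bicarbonate cotransporter of this epithelium, and Prlr the prolactin receptor. Slc4a5 read 5.45, 0.107 and 0.300 rescaled RPKM in tumour-bearing forebrain and 6.26, 13.4 and 11.4 in tumour-bearing hindbrain.

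A second list of 34 other choroid plexus epithelium genes, of which 33 were tested and Krt8 was too low, showed the same libraries as low. Replicates 2 and 3 of the tumour-bearing forebrain were the lowest of the 14 for 14 and 15 of the 33 genes. Kcne2, a potassium channel subunit, was at 1.18% and 5.21% of its level in replicate 1 in these libraries, on only 1 and 5 reads. Tmem72, a membrane protein, was at 2.30% and 4.61%, on 22 and 50 reads. Vat1l, at 85.1% and 90.3%, and Htr2c, the serotonin receptor that neurons also carry, at 89.2% and 79.5%, were nearer to their replicate 1 level. The list thus holds genes near their replicate 1 level in the 2 libraries beside genes at a few percent of it.

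With tumour, 0 of the 33 were called higher in forebrain and 4 lower, while the share of all genes called lower was 16%, so the count stands near the background. Slc29a4, a monoamine transporter, fell by 0.59 on the log2 scale (limma adjusted p = 0.000777), Vat1l by 0.36 (adjusted p = 0.00361), Igfbp2, an IGF binding protein, by 0.45 (adjusted p = 0.0247) and Cdkn1c, a cell cycle inhibitor, by 0.49 (adjusted p = 0.0271). In replicates 2 and 3 of the tumour-bearing forebrain these 4 genes were at 56.5% to 91.7% of their replicate 1 level. Which cells they came from was not tested. Without replicates 2 and 3 of the tumour-bearing forebrain 0 of the 33 were called, and without its replicate 1 there were 16, against 10.6% of all genes tested. The 4 became 2 without replicate 4 of the tumour-free forebrain or replicate 2 or 3 of the tumour-bearing forebrain. In hindbrain 0 of the 33 were called, with 1 under an unadjusted p of 0.05 and 0 by voom. In the interaction limma called 0, with 6 under an unadjusted p of 0.05, and voom called 1. The shares of all genes under that unadjusted p were not counted, so these counts have no background beside them.

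Between the regions many genes of the second list passed the test. In tumour-free brain 17 of its 33 genes were higher in hindbrain and none lower, where 32.5% of all genes tested were called higher. They were led by Trpm3, a cation channel (2.91-fold), Slc4a5 (2.66-fold), Car14, a carbonic anhydrase (2.66-fold), and Slc4a2, an anion exchanger (2.27-fold). In replicates 2 and 3 of the tumour-bearing forebrain Slc4a5 was at 1.96% and 5.51% of its replicate 1 level. Trpm3, Car14 and Slc4a2 were at 58.8% to 75.9% of theirs, and which cells they came from was not tested. In tumour-bearing brain 27 of the 33 were higher in hindbrain, where 30.7% of all genes tested were. They were led by 1500015O10Rik (5.48-fold), Slc4a5 (5.19-fold), Kcnj13 (3.93-fold) and Slc29a4 (3.49-fold). Without the 2 low forebrain libraries 10 of the 33 were called, where 16.7% of all genes tested were, and of the 4 leading genes Slc29a4 alone was still called, at 3.03-fold (limma adjusted p = 4.39e-06). Its level was 31.3 to 32.1 rescaled RPKM in the tumour-bearing hindbrain and 7.52 to 9.77 in all 3 tumour-bearing forebrain libraries. With the replicate block 21 of the 33 were called, against 30.5% of all genes tested. Without replicate 3 of the tumour-bearing forebrain or of the tumour-bearing hindbrain 15 were called, against 26.6% and 26.9%. The median log2 change of the list was 0.59 in tumour-free brain and 1.03 in tumour-bearing brain, and the latter was 0.43 without the 2 low forebrain libraries.

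Markers of tissues next to the choroid plexus were set beside these levels. The 15 ependymal genes, from the ciliated lining of the ventricles, summed to 116.4 rescaled RPKM in replicate 1 of the tumour-bearing forebrain and to 72.1 and 72.6 in replicates 2 and 3, against 72.3 to 95.6 in tumour-free forebrain. Foxj1, which drives the cilia programme, was at 10.35, 4.53 and 5.19 in these 3 libraries. In the same libraries the 9 choroid plexus genes summed to 1633 in replicate 1 and to 137.9 and 160.6 in replicates 2 and 3. The defining ependymal genes Foxj1, Ccdc153 and Tmem212 were above 0 in all 14 libraries, and the part of the ependyma in the result was not tested.

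The 15 meningeal fibroblast genes summed to 771 to 1134 rescaled RPKM in tumour-bearing forebrain and to 1225 to 1484 in tumour-free forebrain, with 2 of 15 called lower, Dcn and Ptgds, near the 16% of all genes tested. Ptgds alone made up most of each sum, at 492 to 778 with tumour and 931 to 1131 without. The groups did not overlap for 4 of the 15 genes, all lower, against 20.8% of all genes tested in that direction. Dcn, a matrix proteoglycan, was at 6.85 in replicate 1 and at 9.63 and 7.64 in replicates 2 and 3, so its level was not lower in the 2 libraries with low choroid plexus genes. The 10 endothelial genes summed to 171.6 to 260.3 in tumour-bearing forebrain and 154.6 to 191.6 in tumour-free forebrain, with 3 of 10 called higher, Pecam1, Cdh5 and Flt1, where 14.4% of all genes tested were. Of 10 forebrain neuron genes 2 were called higher with tumour, Drd1 and Rgs9, and 1 lower, Neurod6. These counts stand near the 14.4% and 16% of all genes tested. Rgs9, a striatal signalling gene, was at 61.2, 91.2 and 100.8 rescaled RPKM in the 3 tumour-bearing forebrain libraries and at 46.3 to 60.7 in tumour-free forebrain. Neurod6, a transcription factor of cortical neurons, was at 28.5, 22.0 and 33.2, against 35.6 to 45.0. The 8 pineal genes summed to 6.12 to 6.93 rescaled RPKM in tumour-bearing forebrain and 6.18 to 8.77 in tumour-free forebrain, with Crx at 0 in 13 of the 14 libraries, Aanat at 0 in 1, and Tph1 above 0 in all 14 and at most 0.550. The part of where the pieces were cut was not tested.

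**Figure D5:**
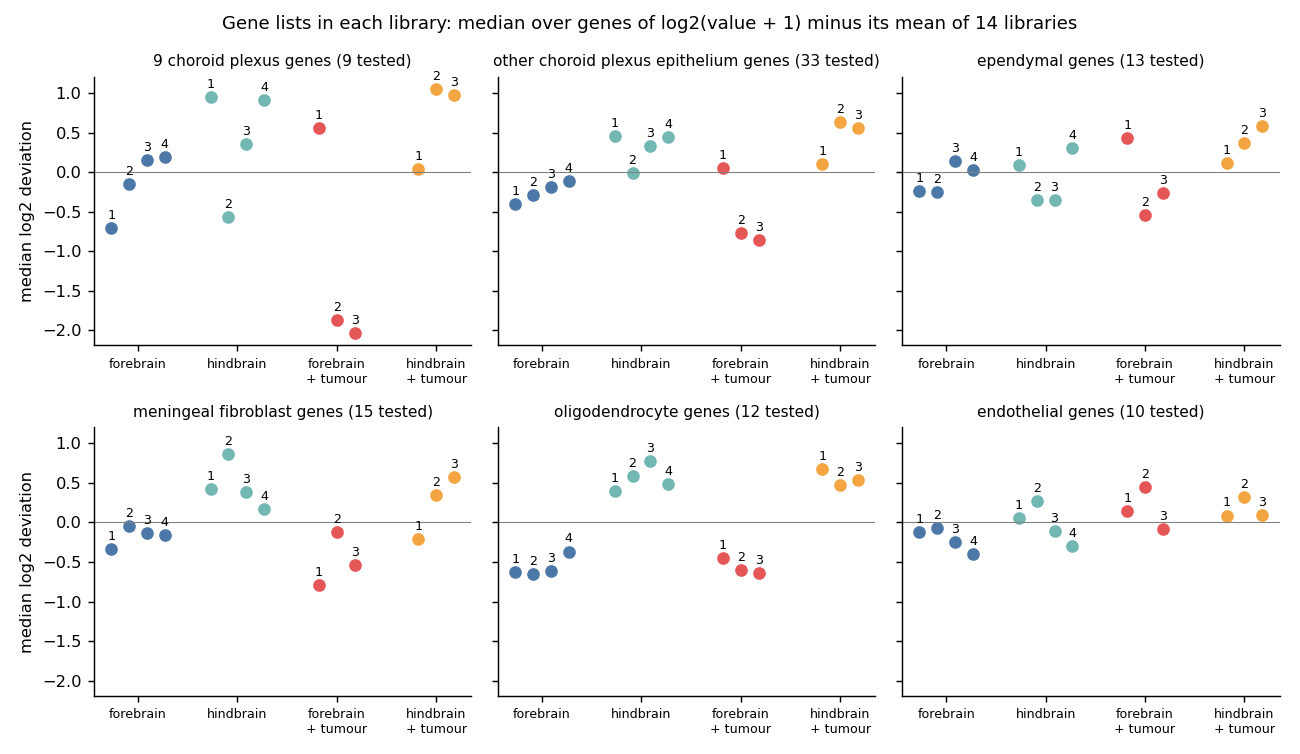
Median over each gene list of log2(rescaled RPKM + 1) minus its mean of the 14 brain libraries, by library, with points numbered by replicate. The choroid plexus genes are at -1.87 and -2.04 in replicates 2 and 3 of the tumour-bearing forebrain and at 0.55 in replicate 1.

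In host cells outside the brain, most of these genes were near 0. The mouse reads of the 4 subcutaneous tumours, 2446513 to 3982107 per library, gave a mean of 3.31 rescaled RPKM for Ttr, 3.12 for Sostdc1 and 6.79 for Enpp2. Folr1, Clic6, Kl, Otx2 and Cldn2 had means under 0.5. Aqp1 was the exception, at 37.3, 36.1, 34.2 and 64.9, above its level in each of the 14 brain libraries, where it reached 5.19. It is also a water channel of blood vessel endothelium and red blood cells outside the brain. In the 3 monolayer libraries, where 7297 to 16524 reads were assigned to mouse, Ttr had 2 reads, Enpp2 4 and the other 7 genes 0. Of the human genes, 5 were read in the table of the tumour cells, FOLR1, AQP1, ENPP2, SOSTDC1 and CLDN2, and all were under 1 rescaled RPKM in every library.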

How the data were processed

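Total RNA of 21 libraries was sequenced, and mouse and human reads were tabulated apart. The authors deposited RPKM per gene on mm10/GRCm38 and hg38/GRCh38, per the submitters' processing notes, and no aligner or read counter is named by the labels or file headers (not given in the sources used here). Whole reads were recovered from the RPKM steps: 100% of values lay within 0.02 of a whole number. RPKM were rescaled to a sum of 1e+06 per library and log2(value + 1) was tested with limma 3.58.1 (R 4.3.3, trend and robust) on the 14 brain libraries, for genes at 1 or more in at least 3 libraries, with Benjamini-Hochberg adjustment and a threshold of 0.05. The fit was tested on simulated data with the same spread in every group. That test cannot show how the fit deals with the split of the tumour-bearing forebrain libraries. Calls are adjusted over all 15777 genes. Genes were named by rule: the 9 members, up to 4 leading called genes of the second list in each direction, 8 by likeness and the first 3 of each marker list. Ptgds, Flt1, Drd1, Rgs9, Tmem72 and Htr2c were named after their values were seen. The members and lists were chosen with earlier results of these data known.

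Same-numbered tumour-bearing forebrain and hindbrain libraries had residual correlations of 0.238 to 0.437 (other pairs -0.32 to -0.04) and were treated as paired in an alternative. Those of tumour-free brain ran from -0.058 to 0.365 (other pairs -0.285 to 0.284), and the same alternative paired them too. Alternatives changed the pseudocount, filter, scaling, spread, weights, block, count model and libraries. Leaving out tumour-bearing forebrain replicates 2 and 3 together, and voom on recovered reads, were chosen after seeing the data. No sequences of these genes were used here.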

Additional observations from a re-analysis of the deposited data

Results flagged for a closer look

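Aqp1 in host cells of the subcutaneous tumours, a tissue that no brain comparison uses, had a mean of 43.1 rescaled RPKM over the 4 libraries (34.2 to 64.9). It had 211 to 587 reads in each, and 0 reads in the 3 monolayer libraries. The latter held 7297 to 16524 mouse reads, too few for 0 reads to show absence. Aqp1 is listed because it is a signal outside the main measurement.

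Human AQP1 in the 6 tumour-bearing brain libraries had a mean of 0.548 rescaled RPKM, with 9 reads in forebrain and 9 in hindbrain, and 0 reads in tumour-free brain. Tumour-free libraries held 3325 to 5753 human reads each, against 3579907 to 6897852 with tumour, so 0 reads there cannot show absence. Human AQP1 is listed for the same reason. Its level was 0.45 to 0.915 in the subcutaneous tumours.

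In the 18 pairs of a gene and a tumour-free group of 4 libraries, no library lay far enough from the others to be listed. The tumour-bearing groups, with 3 libraries each, were not tested for such libraries. No difference between regions in the response to tumour passed its test.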

How the results depend on the processing

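Results were refitted under 28 or 29 alternatives each. Directions of the 9 genes held under every scaling tried (RPKM as deposited, median-of-ratios, quantile and a sum without the 9 genes), but not every call. Between tumour-bearing regions Kl lost its call under the first 3 of these (limma adjusted p 0.0508, 0.0620 and 0.0596). It was also lost without a filter (0.0657), with a filter of 7 libraries (0.05065) and with a pseudocount of 5 (0.0610). Aqp1 lost its call without a filter (0.0743) and Cldn2 with a pseudocount of 5 (0.0541). Folr1 gained one with a pseudocount of 0.1 (0.0423), without trend and robust (0.0311) and with voom (0.0285). Cldn2 rests on 12 and 25 reads in the low forebrain libraries, although these are among the deepest, and the ratios and percentages of low genes there carry that counting error.

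For the 9 genes, the counts called in tumour-free hindbrain against forebrain became 1 without a filter, with median-of-ratios scaling and with the replicate block within tumour status, and 0 with voom on recovered reads. In tumour-bearing hindbrain against forebrain they became 1 with only the groups compared fitted, 2 with library weights, 3 with a replicate block by number over all groups, 2 with the block within tumour status, and 1 without tumour-bearing forebrain replicates 2 and 3. No other count over the 9 genes changed with a block. For the second list, the forebrain count with tumour became 2 without a filter, 2 with the replicate block over all groups and 0 without those 2 libraries. Its interaction count became 1 with quantile normalization, library weights or voom, and its count between tumour-bearing regions 10 without those 2 libraries. Over all genes, the 72 interaction calls became 30 without a filter, 111 with median-of-ratios scaling, 113 with quantile normalization, 660 with library weights, 173 with voom and 3 without the 2 libraries. Library weights gave 824 calls in hindbrain with tumour, against 512. Without the 2 libraries there were 1158 in forebrain with tumour, against 4793, and 4404 between tumour-bearing regions, against 7643.

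With library weights the log2 change with tumour became 0.216 for Clic6 and 0.039 for Enpp2 in forebrain, and -0.128 for Folr1 and -0.071 for Sostdc1 in hindbrain. Without tumour-bearing forebrain replicates 2 and 3 the forebrain change became 1.204 for Ttr, 0.225 for Folr1, 0.777 for Aqp1, 0.826 for Clic6, 0.812 for Kl, 0.506 for Otx2, 0.815 for Enpp2, 0.351 for Sostdc1 and 0.822 for Cldn2. Between tumour-bearing regions it became -0.115 for Ttr and -0.227 for Clic6. The interaction became 0.507 for Ttr, 0.015 for Folr1, 0.39 for Aqp1, 0.392 for Clic6, 0.592 for Kl, 0.192 for Otx2, 0.506 for Enpp2, 0.21 for Sostdc1 and 0.557 for Cldn2.

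Leaving out single replicates moved the counts over all genes to 2353 to 4996 in forebrain with tumour, 291 to 804 in hindbrain with tumour and 12 to 343 in the interaction. The count over the 9 genes ran from 0 to 6 in forebrain with tumour, 0 to 2 between tumour-free regions, 2 to 9 between tumour-bearing regions and 0 to 2 in the interaction. That of the second list ran from 2 to 16 in forebrain with tumour, 15 to 31 between tumour-bearing regions and 0 to 2 in the interaction. Some changes that were called in no fit took both signs over these fits: with tumour in forebrain, Clic6 (-0.611 to 0.142) and Enpp2 (-0.892 to 0.006); with tumour in hindbrain, Folr1 (-0.224 to 0.701), Kl (-0.121 to 0.563), Sostdc1 (-0.257 to 0.429) and Cldn2 (-0.096 to 0.623); and between tumour-free regions, Folr1 (-0.12 to 0.583). The cause of these changes was not tested.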
